A study of Mus musculus with 1920 samples.

Results

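White matter and grey matter microglia were compared between the corpus callosum, the large tract of myelinated axons that joins the hemispheres, and the cortex. The members of the comparison were the single sorted cells whose labels gave untreated corpus callosum or untreated cortex. A well was used when it had 20000 gene counts or more and 500 genes or more, with less than 25% of its counts mitochondrial and less than 50% of them from spike-in RNA. This left 349 of the 1644 kept cells of the series. They comprised 173 of 190 corpus callosum wells and 176 of 190 cortex wells. Both groups came from CD1 mice aged 16 weeks that received no treatment, and the design text states that untreated regions were dissected from shared animals. Sorting used antibodies to the myeloid antigens CD11b and CD45 and to Ly6C, Ly6G and CD206, with gates not given in the sources used here, and libraries were made with Smart-seq2, a full-length method that counts reads without molecular identifiers. Corpus callosum and cortex lay on different plates, so region and plate cannot be told apart in any value that follows. The counts of these cells were added up within each replicate, giving 4 sums of 40 to 46 cells for corpus callosum and 4 sums of 40 to 47 cells for cortex.

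Microglia are the resident macrophages of the brain and spinal cord. In their homeostatic state they express a known set of surface receptors and secreted proteins, among them the ADP receptor P2ry12, the fractalkine receptor Cx3cr1 and the protease inhibitor cystatin C, encoded by Cst3. Microglia of white matter live among myelin, and microglia in ageing or diseased white matter are known for lower homeostatic genes and higher genes of phagocytosis, lipid handling and antigen presentation. Lag3 encodes an immune checkpoint receptor that binds MHC class II and is also expressed by microglia.

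The corpus callosum sums held 7916457 to 10871196 counts and the cortex sums 12681900 to 13736942. Median genes per cell were 2926 in corpus callosum and 2843.5 in cortex, and median mitochondrial shares were 1.19% and 1.08%. At least 1 P2ry12 read was found in all 173 and all 176 cells, although 16 of the 20 negative wells of the series also held one, at a median of 524.5 gene counts per negative well. Hippocampus, which shared a plate with cortex (plate A), and spinal cord, which shared one with corpus callosum (plate C), are given beside the results as untreated regions of the same strain and age. Cerebellum and facial nucleus were together on plate B.

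Few genes passed the correction over all genes, and a gene that missed it is not shown to be alike in both regions. Of 22907 genes tested with edgeR's quasi-likelihood test, 3 were higher in corpus callosum at a Benjamini-Hochberg adjusted p under 0.05, which is 0.0131% of the genes tested, and 0 were higher in cortex. The 3 genes were Gm10800, Gm10801 and Fxyd5. At an unadjusted p under 0.05, 1950 genes were higher in corpus callosum (8.51%) and 557 were higher in cortex (2.43%). DESeq2, a second count model, called 590 genes higher in corpus callosum (2.64% of the 22376 genes with an adjusted p) and 128 higher in cortex (0.572%). Below, a call is one by edgeR. Of the 20 genes with the lowest edgeR p, DESeq2 called 19, all but Malat1. Both models used the same sums, so a DESeq2 call is no independent support for an edgeR result. DESeq2 also called genes read in few cells, among them Stmn2, Dchs2 and Sertad3 (adjusted p = 9.55e-07, 7.01e-09 and 8.48e-06), which are described below. The direction of the differences moved with the level of the gene. Over all genes the median log2 fold change, corpus callosum minus cortex, was 0.23 and 58% of genes were above 0. Among the 1871 genes at 100 CPM (reads of a gene scaled to the depth of its sum) or more over the 8 sums, the median was -0.12 and 37.4% were above 0. In that set of abundant genes the 4 corpus callosum sums lay entirely below the 4 cortex sums for 5.61% of genes and entirely above for 1.23%, while over all genes the shares were 1.41% and 2.81%. DESeq2's size factors moved the median of all genes to 0.35 and that of the abundant genes to -0.01, so a small difference in an abundant gene is to be read against that shift.

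**Figure D1:**
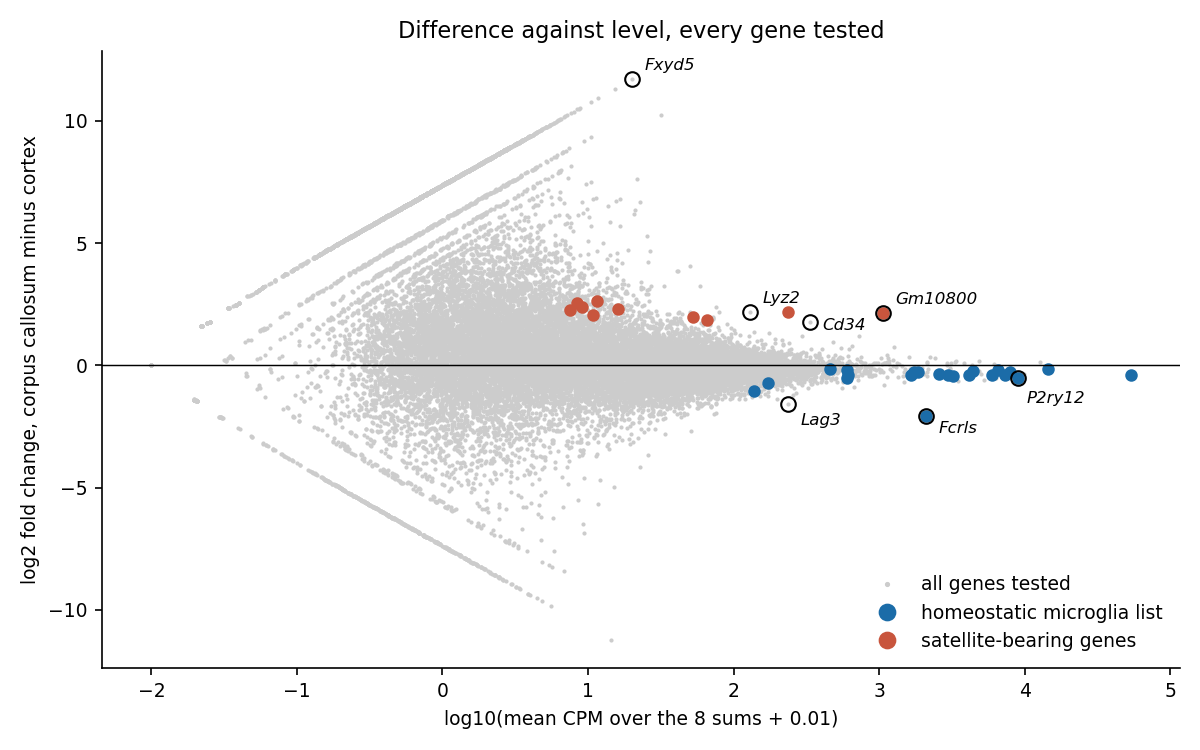
Each point is a gene, with the log10 of its mean CPM over the 8 sums (plus 0.01) on the x axis and its log2 fold change, corpus callosum minus cortex, on the y axis. Homeostatic microglia genes (blue) lie below 0 at high levels, the satellite-bearing genes (red) lie near 2, and open circles mark genes named in the text. The straight diagonals at low levels are genes read in 1 region and at or near 0 counts in the other.

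The lowest p-values belonged to a family of predicted genes whose transcripts carry the mouse major satellite, the tandem repeat of the DNA around the centromeres. A stretch of 90 bases, from GENCODE vM21 transcripts of GRCm38 read 5′ to 3′ in the direction of the transcript, is printed for the 4 members among the leading genes because it shows how little separates them. Capitals mark the base that differs from Gm10800.
Gm10800: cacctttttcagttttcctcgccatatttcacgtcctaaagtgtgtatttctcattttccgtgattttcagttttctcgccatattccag
Gm10801: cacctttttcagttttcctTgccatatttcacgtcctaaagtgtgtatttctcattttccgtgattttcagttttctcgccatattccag
Gm10717: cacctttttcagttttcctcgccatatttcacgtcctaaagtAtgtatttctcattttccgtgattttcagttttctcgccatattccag
Gm21738: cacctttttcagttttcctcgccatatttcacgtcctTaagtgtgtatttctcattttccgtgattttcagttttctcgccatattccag
Each of the other 3 matched Gm10800 at 89 of the 90 bases, so reads could have been split between these genes or lost in the counting, and the single-gene values are uncertain.

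Gm10800 (chromosome 2, 98666547 to 98667301, minus strand) measured 1716, 1859, 1213 and 2110 CPM in the 4 corpus callosum sums and 487, 432, 358 and 281 CPM in cortex. The groups did not overlap, and the lowest corpus callosum sum was above the highest cortex sum. The log2 fold change was 2.15 ± 0.27 (SE, n = 4 and 4, edgeR adjusted p = 0.000105). Gm10801 (chromosome 2, 98662237 to 98664083, plus strand) measured 369, 436, 272 and 471 CPM against 94.7, 102, 85.0 and 58.1 CPM, again without overlap, with a log2 fold change of 2.19 ± 0.30 (edgeR adjusted p = 0.00039). Gm10717 on chromosome 9 and Gm21738 on chromosome 14 had log2 fold changes of 1.86 ± 0.41 and 1.97 ± 0.46 and were not called (edgeR adjusted p = 0.206 and 0.282).

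The whole family was gathered after its first members had been seen, as the 13 genes whose transcripts share at least 20 of the 20-base words of Gm10800. Of these, 10 passed the filter on low counts. In all 10 the corpus callosum sums lay above the cortex sums, beside 2.81% of all genes, with a median log2 fold change of 2.22. The members share sequence and were gathered from leading genes, so these are not 10 separate results. Their summed level was 2360, 2619, 1688 and 2951 CPM in corpus callosum and 663, 609, 515 and 394 CPM in cortex. The other regions lay between or beside these: 1281 ± 320 CPM in hippocampus, 1391 ± 99.0 in cerebellum, 1781 ± 798 in spinal cord and 2762 ± 783 in facial nucleus (SD, n = 4 each). Cortex was thus the lowest of 6 regions, and corpus callosum and facial nucleus overlapped. A Gm10800 read was found in 165 of 173 corpus callosum cells and 163 of 176 cortex cells, so the difference lay in the level per cell and not in how many cells held a read. Median counts per cell were 201705 in corpus callosum and 302276 in cortex. In cortex they rose from replicate 1 to 4 (281586, 285924, 312380 and 346744) while the summed level fell. Facial nucleus and spinal cord had the same order. Corpus callosum, hippocampus and cerebellum did not keep it throughout. The part of depth per cell in the difference was not tested. The median over cells, each thinned to 20000 counts, was 2100 CPM in corpus callosum and 275 CPM in cortex. In the negative wells Gm10800 gave 1 of 8926 gene counts on plate A (112 CPM) and 4 of 2241 on plate C (1785 CPM). The plate C value, from 4 reads, lies at the level of the corpus callosum sums, and its part in the difference was not tested.

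The breadth of detection moved with this family. After each sum was thinned to 7916457 counts, 21065 to 22329 genes had at least 1 read in the corpus callosum sums and 16829 to 18474 in the cortex sums, although cortex cells were sequenced deeper. Spinal cord had 18164 to 22080 and hippocampus 17441 to 19739. Pseudogenes took 0.453% to 0.627% of corpus callosum counts and 0.277% to 0.355% of cortex counts. Over the 24 sums of the 6 untreated regions, summed satellite CPM and genes read went together with a Pearson r of 0.80 and a Spearman rho of 0.83. Within single plates of 8 sums each r was 0.74, 0.96 and 0.86, and without the 2 sums farthest from the median satellite level it was 0.81. Neighbouring points share a plate, and each point shares its reads between the 2 measures. The part of the breadth of detection in the larger number of low-level genes higher in corpus callosum was not tested.

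**Figure D2:**
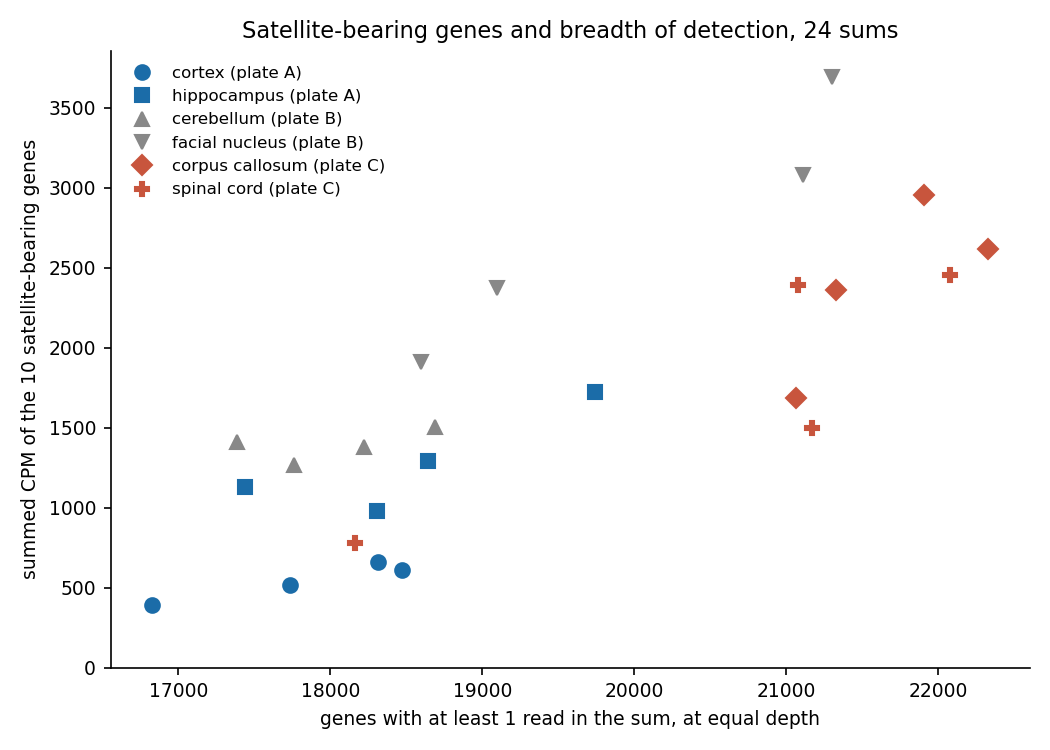
Each point is 1 of the 24 sums, 4 per untreated region, with the number of genes read at equal depth on the x axis and the summed CPM of the 10 satellite-bearing genes on the y axis. The 4 cortex sums lie at the lower left, between 394 and 663 CPM, and the 4 corpus callosum sums at the upper right, between 1688 and 2951 CPM.

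Fxyd5, which encodes dysadherin, a small membrane protein that regulates the sodium pump and cell adhesion, was the only called gene outside the satellite family. It measured 82.4, 52.9, 6.72 and 19.4 CPM in corpus callosum and 0 in all 4 cortex sums, from 1546 counts against 0. Against a floor of 3 counts over the cortex group, the ratio of reads was 720 (edgeR adjusted p = 0.0437). That floor treats reads as independent, which reads of the same cell are not, so the ratio is no lower bound. The reads came from 30 of 173 corpus callosum cells. They made up 35.6%, 19%, 6.52% and 7.5% of cells in the 4 replicates, against 0 of 176 cortex cells. By counting error alone that 0 allows a share of up to 1.70% of cells with a read, which is no limit on cells expressing the gene. Spinal cord, on the same plate as corpus callosum, measured 53.3 ± 19.3 CPM, and hippocampus, on the plate of cortex, 6.32 ± 12.1 CPM (SD, n = 4). Cerebellum measured 50.5, 11.3, 1.13 and 7.68 CPM and facial nucleus 24.9, 46.1, 5.78 and 6.02 CPM, overlapping corpus callosum. Only cortex was at 0 in all 4 sums. The call was lost without corpus callosum replicate 1 or 2 (adjusted p = 0.0838 and 0.0645) and without any 1 cortex sum (0.213 to 0.214).

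Several further genes near the top of the ranking were read in few cells, mainly of 1 of the 2 regions compared, and were not called. Dchs2, a protocadherin gene, had 856 counts from 12 corpus callosum cells and 0 in cortex, a ratio of 399 to the same floor (edgeR adjusted p = 0.176). It was also read in hippocampus, on the plate of cortex, at 28.8, 6.62, 0 and 1.53 CPM. Facial nucleus held 29, 13.5, 37.5 and 12.9 CPM of Dchs2. Sertad3, a transcriptional coregulator gene, went the other way, with 1402 counts from 15 cortex cells and 0 in corpus callosum. Its ratio, cortex over that floor, was 334 (edgeR adjusted p = 0.346). Spinal cord, on the plate of corpus callosum, held 13.3, 22.4, 38.9 and 1.99 CPM of Sertad3, and hippocampus 64.8, 2.06, 25.5 and 0 CPM. Of 2618 Stmn2 counts in corpus callosum, 89.8% came from a single cell of the 10 that held any. Stmn2 encodes a neuronal microtubule protein, and its sums measured 233, 16.2, 0.0974 and 3.92 CPM in corpus callosum against 0.156, 0, 0 and 0 in cortex. The remaining 2 of the 20 leading genes, Gm26714 and Gm1966, are predicted genes or pseudogenes and had adjusted p-values of 0.206 and 0.351.

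The homeostatic receptor P2ry12 had lower values in corpus callosum. The 4 sums measured 6494, 8170, 7479 and 7520 CPM in corpus callosum and 9528, 10980, 11574 and 9929 CPM in cortex. Every cortex sum was above every corpus callosum sum. The log2 fold change of -0.50 ± 0.11 did not pass the correction over all genes with edgeR (p = 9.00e-05, adjusted p = 0.206), while DESeq2 gave -0.38 and called it (adjusted p = 0.0355). Hippocampus measured 9493 ± 687 CPM, next to cortex, and the other regions lay with corpus callosum, at means of 7255 in cerebellum, 7086 ± 569 in facial nucleus and 6182 ± 1243 in spinal cord (SD, n = 4). P2ry12 was read in nearly every cell at every depth, so its difference was one of level: the median thinned cell held 7250 CPM in corpus callosum and 9125 CPM in cortex.

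Lag3 (chromosome 6, 124904361 to 124911705) differed more in proportion. It measured 101, 88.7, 127 and 158 CPM in corpus callosum and 273, 451, 209 and 492 CPM in cortex, without overlap. The log2 fold change was -1.59 ± 0.37 (edgeR p = 0.000148, adjusted p = 0.282). After thinning to 20000 counts per cell, Lag3 was read in 15.6%, 23.8%, 23.9% and 35.0% of corpus callosum cells and in 48.9%, 63.0%, 48.8% and 67.5% of cortex cells. Without thinning the means were 32.0% and 71.4%, and no Lag3 read was found in the 20 negative wells. Hippocampus, at 289 ± 106 CPM, again lay next to cortex, and cerebellum (55.1 ± 11.2), facial nucleus (91.8 ± 42.2) and spinal cord (109 ± 52.4) next to corpus callosum. Whether Lag3 was called differed between settings. DESeq2 called it on the same sums (-1.47, adjusted p = 0.00232). With every cell counted equally edgeR's adjusted p was 0.0447, and limma on log values averaged over cells, which changed both weighting and test, gave 1.62e-05.

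**Figure D3:**
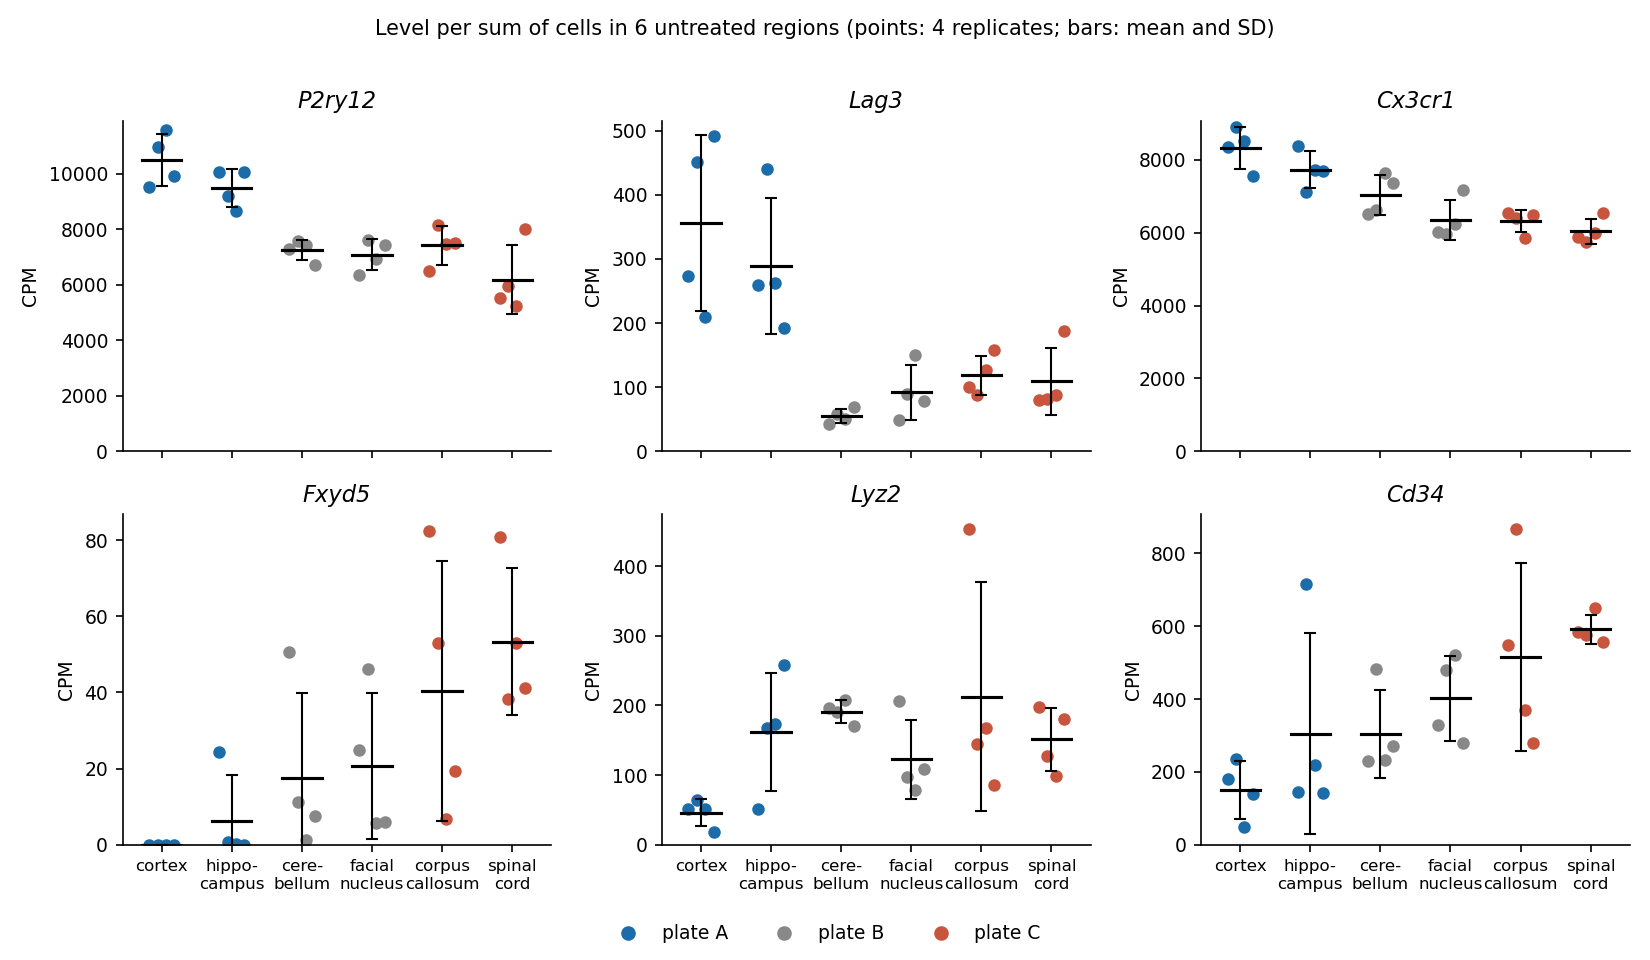
Level in CPM of 6 genes in each of the 24 sums (points), with the mean and SD of the 4 replicates of a region, coloured by plate. P2ry12, Lag3 and Cx3cr1 are higher in cortex and hippocampus, both on plate A, than in corpus callosum and spinal cord, both on plate C, and Fxyd5 is at 0 in all 4 cortex sums.

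The other homeostatic genes had the same direction as P2ry12. Of 22 listed genes, 22 were tested, 0 were called by edgeR and 2 by DESeq2 (P2ry12 and Cx3cr1), and all 22 had a log2 fold change below 0, with a median of -0.39. At an unadjusted p under 0.05, 9 were lower in corpus callosum and 0 higher, beside 2.43% and 8.51% of all genes. Those shares cover genes of every level. Among abundant genes, which lean to cortex, 37.4% were above 0 and the median was -0.12. All 22 also stayed below 0 with DESeq2's size factors (median -0.27) and with upper-quartile scaling (-0.32). The summed level of the list was 118093, 108374, 124022 and 109183 CPM in corpus callosum and 144236, 152010, 151648 and 147102 CPM in cortex, without overlap. Cst3, the most abundant of them, made up much of that sum, with 46027 ± 7055 CPM against 61087 ± 3252 CPM (log2 fold change -0.41 ± 0.10). Cx3cr1 measured 6539, 6409, 5866 and 6474 CPM in corpus callosum and 8351, 8907, 8518 and 7545 CPM in cortex (log2 fold change -0.40 ± 0.09, edgeR adjusted p = 0.31). Gpr34, a lysophosphatidylserine receptor gene, and Sparc, which encodes a matrix-binding secreted protein, had log2 fold changes of -0.38 ± 0.13 and -0.39 ± 0.12. Their sums did not overlap either.

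Fcrls, an Fc receptor-like gene of mouse microglia, had the largest fitted difference of the homeostatic list. It measured 297, 804, 491 and 1638 CPM in corpus callosum and 2247, 3802, 2413 and 5054 CPM in cortex. The highest corpus callosum sum was below the lowest cortex sum, but the spread within each region was wide, and the log2 fold change of -2.07 ± 0.81 was not called (edgeR adjusted p = 0.402). Without corpus callosum replicate 4 it was -2.67. The spread followed the replicate number: replicate 4 was highest and replicate 2 next in all 6 untreated regions. The main fit did not use that number. Fits with it as a block called Fcrls, as given with the other settings below. Levels elsewhere were 2596 ± 1422 CPM in hippocampus and 583 ± 487 CPM in spinal cord. Of the 22 homeostatic genes 8 did not overlap between the regions, all with cortex higher, against 5.61% of abundant genes. Beside P2ry12, Cx3cr1, Cst3, Gpr34, Sparc and Fcrls these were Bin1 and Crybb1, the last 2 named because their values had been seen.

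The 3 chains of C1q, the initiator of the classical complement cascade, had lower values together in corpus callosum. C1qa measured 4447, 4215, 4704 and 4032 CPM against 5143, 5917, 5734 and 5633 CPM in cortex. C1qb had a log2 fold change of -0.58 ± 0.14 and C1qc, with 2565, 2676, 3303 and 2371 CPM against 3987, 4698, 4061 and 4008 CPM, one of -0.62 ± 0.14 (edgeR adjusted p = 0.351 and 0.289). None of the 3 overlapped between regions, beside 5.61% of abundant genes with cortex entirely higher. Over the whole complement list of 20 tested genes, C1q included, 13 were below 0 and 7 above, with a median of -0.20. With DESeq2's size factors 11 were below 0 and 9 above, with a median of -0.08. Of the list 0 were called by edgeR and 1, C1qc, by DESeq2. Fcer1g, the common signalling chain of the Fc receptors, had 1121 ± 220 CPM against 1554 ± 101 CPM. Of the 16 tested genes of Fc receptor and Trem2 signalling 12 were below 0 (median -0.20), and 11 with DESeq2's size factors (median -0.09). Among 19 immune checkpoint genes, 13 were below 0 and the median was -0.35 (12 and -0.23 with DESeq2's size factors). Sirpa, the receptor for the CD47 signal, measured 1710 ± 118 CPM against 2186 ± 126 CPM without overlap.

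Lysosomal genes as a list did not lean clearly to either region. Of 32 tested, 20 were below 0, with a median of -0.10 that became 0.02 with DESeq2's size factors. Single members differed more: the peptidase gene Tpp1 measured 693, 413, 389 and 414 CPM in corpus callosum and 1024, 845, 747 and 877 CPM in cortex (log2 fold change -0.87 ± 0.25, edgeR adjusted p = 0.402). Atp6v0d1, a subunit of the proton pump, had 99.7 ± 12.6 CPM against 185 ± 15.7 CPM. The cholesterol exporter gene Abcg1 measured 226 ± 51.8 CPM against 428 ± 34.4 CPM. Tpp1, Atp6v0d1 and Abcg1 did not overlap between regions. They were 2 of the 32 lysosomal genes and 1 of 24 genes of lipid uptake and cholesterol efflux. Cortex was entirely higher for 5.61% of abundant genes and 1.41% of all genes, so these counts do not set the lists apart from abundant genes.

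Genes that earlier work ties to white matter and disease-associated microglia were mixed. Of 34 listed, 33 were tested, 21 were above 0 and 12 below, with a median of 0.13 beside 0.23 for all genes. None was called by edgeR, and DESeq2 called 3, all higher in corpus callosum (Lyz2, Fth1 and Igf1). At an unadjusted p under 0.05, 5 were higher and 1 lower in corpus callosum, beside 8.51% and 2.43% of all genes. Lyz2, which encodes lysozyme, measured 453, 145, 168 and 85.4 CPM in corpus callosum and 51.4, 64.5, 51.2 and 17.8 CPM in cortex. Its groups did not overlap, and replicate 1 of corpus callosum stood above the rest. The log2 fold change of 2.20 ± 0.47 was not called (edgeR adjusted p = 0.194). It was 1.53 without corpus callosum replicate 1, and without replicate 4 it was 2.46 and called (adjusted p = 0.0453). In the other regions mean levels lay between those of cortex and corpus callosum: hippocampus measured 162 ± 84.6 CPM, cerebellum 191 ± 15.7, facial nucleus 123 ± 57.0 and spinal cord 151 ± 45.7.

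Fth1, the heavy chain of the iron store ferritin, measured 2059, 1195, 2026 and 1081 CPM in corpus callosum and 1051, 1047, 958 and 705 CPM in cortex, with the lowest corpus callosum sum just above the highest cortex sum. Its log2 fold change was 0.76 ± 0.24 (edgeR adjusted p = 0.402). Igf1, a growth factor gene, was near 0 in both regions, at 4.81 ± 5.11 and 0.0594 ± 0.0397 CPM. Apoe, Trem2 and Spp1, well known members of this list that the naming rule did not pick, were looked up after values had been seen. Apoe measured 894, 451, 2401 and 282 CPM in corpus callosum and 181, 398, 655 and 537 CPM in cortex, which overlapped widely (log2 fold change 1.19 ± 1.18). Trem2, the lipid-sensing receptor gene of this state, measured 1388 ± 301 and 1345 ± 321 CPM. Spp1, or osteopontin, measured 25.5 ± 18.4 and 3.51 ± 4.26 CPM and overlapped.

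**Figure D4:**
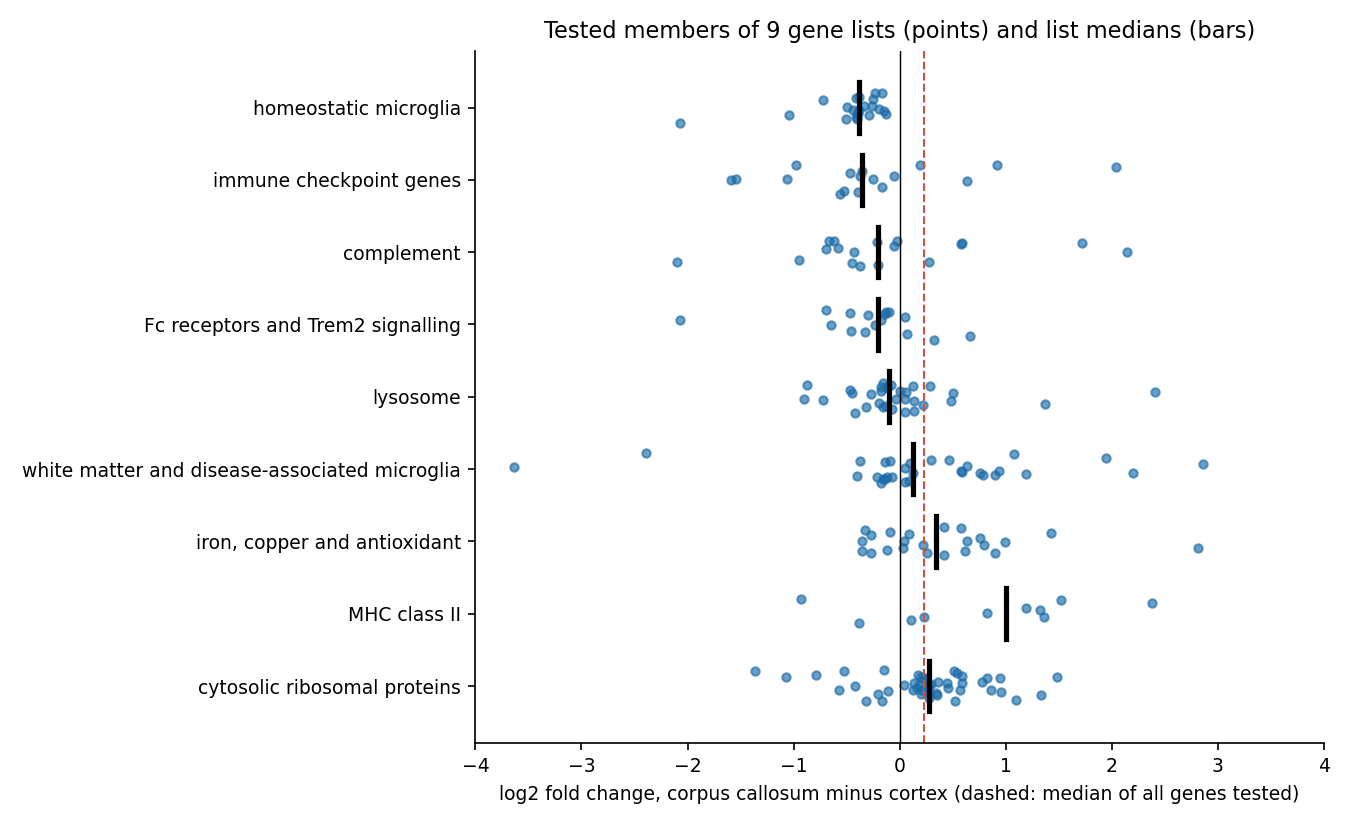
Log2 fold change, corpus callosum minus cortex, of the tested members (points) of 9 gene lists, with each list's median (bar) and the median of all genes tested (dashed line, 0.23). All 22 homeostatic members lie below 0 with a median of -0.39, the MHC class II median is 1.01, and 7 members beyond 4 in size are not drawn.

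Antigen presentation by MHC class II had higher values in corpus callosum in part of its genes. Of 10 tested, 8 were above 0, with a median of 1.01. None was called by edgeR, and DESeq2 called H2-DMa and H2-DMb1 (adjusted p = 0.00303 and 0.00169). These were also the 2 whose sums did not overlap, beside 2.81% of all genes with corpus callosum higher. They encode the chaperone that loads peptides onto class II molecules. H2-DMa measured 354, 246, 226 and 177 CPM in corpus callosum and 114, 89.2, 101 and 98.6 CPM in cortex (log2 fold change 1.32 ± 0.35, edgeR adjusted p = 0.402). H2-DMb1 measured 250, 222, 121 and 119 CPM against 39.6, 76.8, 103 and 92.7 CPM (1.19 ± 0.35). The invariant chain gene Cd74 overlapped, at 42.0 ± 49.4 and 14.6 ± 8.23 CPM. H2-DMa was 115 ± 48.2 CPM in hippocampus and 328 ± 98.1 CPM in spinal cord, so its order followed the plates as well.

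Other genes with higher values in corpus callosum had no common list. Cd34, a sialomucin gene best known from progenitor and endothelial cells, measured 549, 866, 370 and 280 CPM in corpus callosum and 180, 235, 47.8 and 140 CPM in cortex, without overlap (log2 fold change 1.78 ± 0.44, edgeR adjusted p = 0.351). Capg, an actin-capping protein gene, measured 189, 169, 54.9 and 111 CPM against 24.6, 28.7, 29.3 and 32.3 CPM (2.19 ± 0.59, adjusted p = 0.402). Spinal cord was high for both, with 592 ± 40 CPM of Cd34 and 226 ± 67.8 CPM of Capg. Hippocampus held 305 ± 276 and 32.1 ± 22.8 CPM. Gpx1, a glutathione peroxidase gene, measured 1106, 569, 935 and 716 CPM in corpus callosum and 487, 441, 507 and 473 CPM in cortex (0.80 ± 0.22, adjusted p = 0.402). The means of the other 4 regions were 414 to 536 CPM. Of 24 tested genes of iron, copper and antioxidant handling 17 were above 0, with a median of 0.34. None was called by edgeR, and DESeq2 called 2, Fth1 and Gpx1.

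The shares of cells with a read gave the same order for these genes at equal depth. After thinning to 20000 counts, Cd34 was read in 53.3%, 64.3%, 41.3% and 42.5% of corpus callosum cells and in 12.8%, 32.6%, 4.65% and 20.0% of cortex cells. H2-DMa was read in 44.6% ± 3.22 of corpus callosum cells and 21.6% ± 1.34 of cortex cells, Capg in 27.8% ± 11 and 7.92% ± 0.82, and Lyz2 in 27.1% ± 4.56 and 11.2% ± 2.56 (SD over 4 replicates). Without thinning these means were 50.9% and 28.6% for H2-DMa, 33.4% and 12.1% for Capg, and 34.0% and 14.5% for Lyz2. For each of these 4 genes the lowest corpus callosum replicate was above the highest cortex replicate. In the 20 negative wells a read was found in 1 for Cd34, 1 for H2-DMa, 2 for Capg and 6 for Lyz2.

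**Figure D5:**
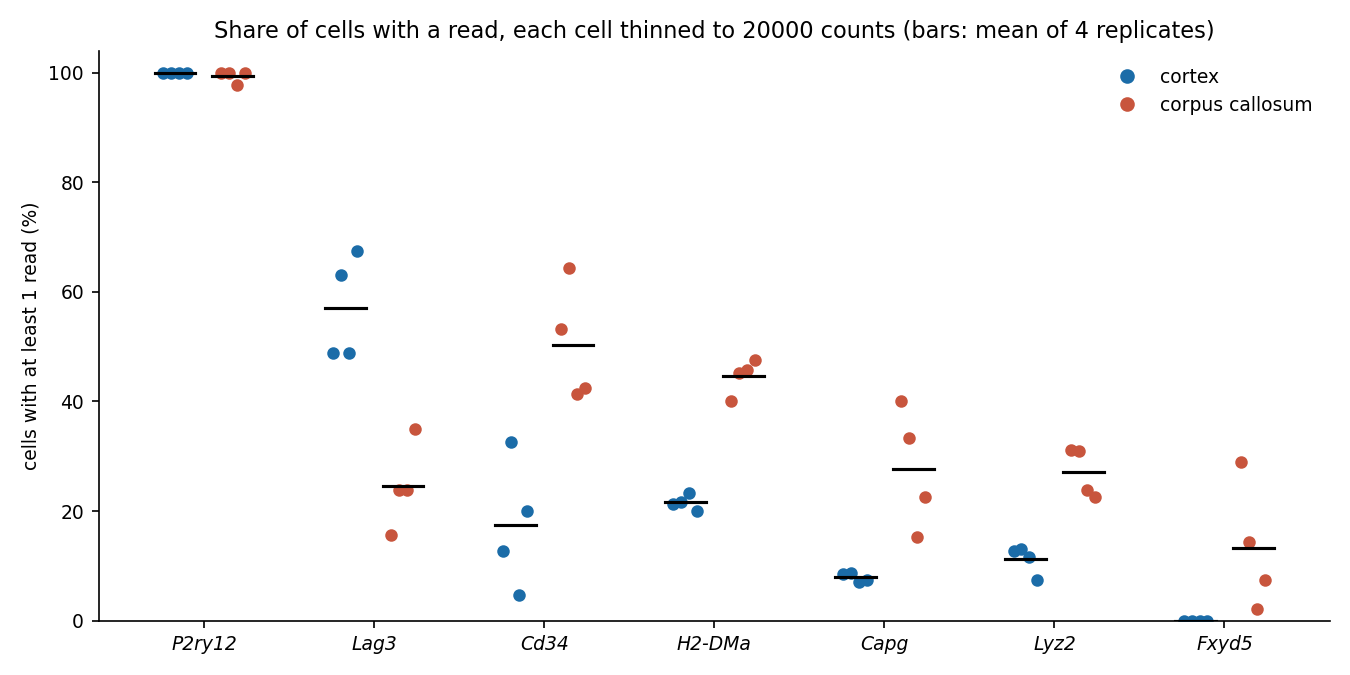
Percent of cells with at least 1 read of 7 genes, each cell thinned to 20000 counts, in the 4 replicates of cortex and of corpus callosum (points), with the mean of each region (bars). P2ry12 is read in nearly all cells of both regions, Lag3 in more cortex cells, and Cd34, H2-DMa, Capg, Lyz2 and Fxyd5 in more corpus callosum cells.

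The 4 other genes among the 20 with the lowest p had higher values in cortex. Itm2b, which encodes an integral membrane protein that binds the amyloid precursor, measured 5952, 5023, 5200 and 4625 CPM in corpus callosum and 6849, 8218, 7142 and 7413 CPM in cortex (log2 fold change -0.51 ± 0.11, edgeR adjusted p = 0.176). Malat1, an abundant long non-coding RNA that stays in the nucleus, measured 3593 ± 479 and 4953 ± 208 CPM, but cerebellum was higher than both at 6749 ± 763 CPM. Rsrp1, an arginine and serine rich protein gene, measured 1137 ± 138 and 1815 ± 201 CPM. Vti1b, a vesicle fusion gene, measured 36.0, 33.7, 22 and 31.3 CPM in corpus callosum and 159, 103, 70.2 and 148 CPM in cortex (-1.96 ± 0.44, adjusted p = 0.206). None of the 4 overlapped between the regions, which follows largely from their choice by low p in these same sums. Cortex was entirely higher for 5.61% of abundant genes and 1.41% of all genes.

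Markers of the surrounding cells were measured in the same sums. The oligodendrocyte and myelin list of 18 genes had 15 tested, 13 above 0, 0 called by edgeR and 1 by DESeq2, with a summed level of 287 to 757 CPM in corpus callosum and 326 to 440 CPM in cortex. Mbp, the myelin basic protein gene, measured 119, 41.7, 75.5 and 49.0 CPM in corpus callosum and 10.9, 1.10, 24.5 and 30.2 CPM in cortex, without overlap, and 679 ± 375 CPM in spinal cord. Mbp was read in 46 of 173 and 18 of 176 cells and in 0 of the 20 negative wells. Markers of oligodendrocyte precursors summed to 90.7 to 145 CPM against 5.41 to 65.4 CPM, with all 8 above 0. The astrocyte list had 7 of 13 above 0 and 6 below, and its summed level was 112 to 306 CPM against 274 to 376 CPM. Its members differed in direction: Gfap measured 26.4, 12.6, 27.6 and 10.5 CPM against 0, 0, 2.22 and 0, while Aqp4 gave 90 counts against 333 and Aldh1l1 86 against 628. Of 14 endothelial and mural genes 10 were above 0, with 93.2 to 239 CPM in sum against 132 to 181 CPM. Cldn5 gave 62 and 55 counts, Pecam1 398 and 2107, and Flt1 811 and 285. Of 9 border macrophage genes 7 were above 0, yet the summed level was 89 to 328 CPM against 175 to 332 CPM, with 94 and 12 counts of Mrc1 and 18 and 46 of Cd163. Of 11 monocyte genes 10 were above 0, with 42.9 to 198 CPM against 27.1 to 87.3 CPM, and Ccr2 gave 925 and 976 counts. Neuron markers summed to 45.3 to 350 CPM against 13.1 to 80.1 CPM, with 9 of 14 above 0. T and NK cell markers summed to 12.3 to 22.1 CPM against 6.49 to 10.1 CPM, with 9 of 10 above 0, and B cell markers to 534 to 1020 CPM against 467 to 842 CPM, with 4 of 7 above 0. Neutrophil markers summed to 6.33 to 15.0 CPM against 0 to 12.9 CPM, with 5 of 8 above 0, and erythroid markers to 1.21 to 7.16 CPM against 0 to 7.42 CPM. Of these 2 lists S100a8 and Hba-a2 were at 0 in all 8 sums. Of the marker lists from astrocytes onward edgeR called 0 genes. DESeq2 called 2 astrocyte genes higher and 1 lower, 1 neuron gene higher and 1 T and NK cell gene higher in corpus callosum. Over all genes DESeq2 called 2.64% higher and 0.572% lower there, so so few marker calls do not set these lists apart. The part of these other cell types in the differences above was not tested.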

How the data were processed

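The authors deposited raw read counts for every gene in every well. The submitters' processing notes name STAR 2.5.2b, featureCounts 1.5.1 and the build GRCm38. Which annotation release they counted on, and whether strand was used, is not given in the sources used here. No strand is marked by Smart-seq2, so reads of a gene and of an overlapping or antisense partner are counted as alike. Names and positions came from GENCODE vM21, in which 48349 of 48709 gene identifiers were found. Spike-in entries stayed out of library sizes. No doublet caller was run.

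Counts of kept wells were summed per replicate label, and the 24 sums of the 6 untreated regions were fitted together with edgeR 4.0.16 in R 4.3.3 (TMM scaling, minimum count 10, minimum total 15, robust quasi-likelihood fit, F test), because this gives 1 estimate of the spread. Adjusted p-values run over all genes tested. CPM levels use the same scaling, with errors as SD over 4 sums. Floors of 3 counts per group use unscaled CPM and cover only the counting error of reads taken as independent. DESeq2 1.42.0 and limma 3.58.1 served as alternatives. Plate could not be a term in the model. The labels number 4 replicates per region without saying that equal numbers are equal mice, and the design text gives 3 to 4 mice per condition, so p-values measure the spread between these sums. No sums of a group agreed within sampling noise.

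Genes were named by a rule: P2ry12 and Lag3, every called gene, the next lowest p up to 20 genes, and the 3 lowest p of each of 38 gene lists. The members and lists were chosen with earlier results of these data known. Scripts were tested on simulated data.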

Additional observations from a re-analysis of the deposited data

Results flagged for a closer look

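Among 126 groups of 4 values checked for a sample far from the other 3, 11 held one, and chance alone flags about 1 in 20. In corpus callosum these were all in replicate 1. It held 233 CPM of Stmn2 against 0.0974 to 16.2 in the other 3 sums, 693 CPM of the lysosomal gene Tpp1 against 389 to 414, 81 CPM of the proton pump gene Atp6v0d1 against up to 108, and 128 CPM of the transcription factor gene Maf against 296 to 331. In cortex, replicate 2 stood above the others for C1qc (4698 CPM against 3987 to 4061), C1qb (7062 against 6049 to 6143) and Sertad3 (52.7 against 18.5 to 23), and below them for Igf1 (0 against 0.0773 to 0.0822). Cortex replicate 3 stood above the others for Unc93b1, a partner of the Toll-like receptors (2097 CPM against 1697 to 1740), and for Gfap (2.22 against 0). Cortex replicate 1 held the only Stmn2 of its region (0.156 CPM against 0). A gene at 0 in 3 of 4 sums is flagged by any read in the other, as for Stmn2 and Gfap in cortex. Igf1 lay at or near 0 in all 4 cortex sums. The rate of 1 in 20 does not hold for these genes.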

How the results depend on the processing

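The 3 genes higher in corpus callosum became 590 with DESeq2, 36 when log values were averaged over cells, 10 among genes read in 20% of cells, 5 with no filter on low counts and 1 with the replicate block on 8 sums. The 0 genes higher in cortex became 128, 10 and 3 with DESeq2, averaged log values and equal weight for each cell, and 1 with the replicate block on 24 or on 8 sums. Leaving out 1 sum gave 2 to 4 and 0 to 1 genes. The cause of these differences between settings was not tested. Gm10800 was called in every setting run, with a log2 fold change of 1.93 to 2.39, and Gm10801 in all but the block on 8 sums (adjusted p = 0.118). Fxyd5 was also lost with only the 8 sums (0.12), the block on 8 sums (0.528) and, as a setting added after seeing the data, sums thinned to equal depth (0.111). Of the 55 named genes none changed direction in any of 1283 alternative values. Most were named for a low p in the main fit, and the settings reuse the same reads. A change of direction was therefore unlikely from the start, and its absence is no independent support. Same-numbered sums correlated at 0.02 to 0.05 in their deviations and others at -0.04 to 0.02. These values are all low, and the main fit did not use the numbers to pair sums. Still, all 4 cortex sums and 3 of the 4 corpus callosum sums correlated best with their own number. With the block, Fcrls was called lower in corpus callosum (adjusted p = 0.0015 on 24 sums and 0.0101 on 8). Cortex sums were deeper, and low-level genes rest on few cells.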

Other observations

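Among groups of genes not described above, genes of the cell cycle had higher values in corpus callosum in 23 of 31 tested, with a median log2 fold change of 1.93 and 0 called by edgeR or DESeq2 (2 were higher and 0 lower at an unadjusted p under 0.05), at levels that rest on few cells: Cdk1, the mitotic kinase gene, measured 45 ± 53.9 CPM and 7.20 ± 3.41 CPM in cortex, and the groups overlapped. Cytosolic ribosomal protein genes were above 0 in 35 of 46, with a median of 0.27 beside 0.23 for all genes, and Rpl4 measured 919, 371, 906 and 335 CPM against 348, 255, 327 and 375 CPM, with 2 corpus callosum sums high and 2 within the range of cortex. Of 19 Toll-like receptor genes and partners 15 were below 0 (10 of 19 with DESeq2's size factors). Unc93b1, which carries these receptors to endosomes, measured 1321 ± 167 CPM against 1810 ± 192 CPM, and the lipopolysaccharide coreceptor gene Cd14 measured 421 ± 138 CPM against 262 ± 70.3 CPM. The glutamate transporter gene Slc1a3, usually read as an astrocyte marker, measured 145 ± 65.5 CPM against 288 ± 43.9 CPM, opposite in direction to Gfap. The chemokine gene Ccl6 measured 313 ± 121 CPM against 167 ± 72.3 CPM, and the groups overlapped. None of these genes passed the correction over all genes with edgeR, and DESeq2 called Rpl4 and Slc1a3 among them (adjusted p = 0.00993 and 0.027).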
